A study of Mus musculus with 12 samples.

Results

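A set of 66 protein-coding genes was chosen by medians pooled over both genotypes. These medians stayed near the embryonic stem cell (ESC) level for the first 24 h of spheroid formation and were higher at 48 h. Levels were taken as TPM, a transcript level per length that sums to the same total in every library. TPM was summed for each of 35580 genes, and the median of log2(TPM + 1) over the 4 libraries of each time point was taken. A protein-coding gene belonged to the set when its 48 h median was at least 0.8 above its 24 h median, its 24 h median differed from its 0 h median by less than 0.3, and its median TPM at 48 h was at least 3. The set held 66 of 22013 protein-coding genes, or 0.624% of the 10573 protein-coding genes with a median of at least 3 TPM at 48 h. The genes were thus chosen by the measured changes from 0 h to 24 h and from 24 h to 48 h, which are described without a test. The rule pools both genotypes and does not compare them, but it uses the same 24 h and 48 h values, so a comparison of the genotypes at these times is not fully independent of the choice of genes.

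The 12 libraries came from mouse cells of 2 genotypes, wild type (WT) and CIDEA KO (Cidea -/-), with 2 replicates per genotype and time point. WT was the parental R1 ESC line, and CIDEA KO cells were derived from it by deletion of the Cidea locus with CRISPR-Cas9. At 0 h the cells were ESCs kept in serum and LIF, the cytokine that holds them in self-renewal, and at 24 h and 48 h they were 3D spheroids in growth factor-reduced Matrigel, in serum without LIF. All KO libraries came from 1 clone, so the loss of Cidea and other properties of that clone cannot be told apart. The replicates were labelled as separate samples, and p-values measure the spread between them.

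Mouse ESCs embedded in a basement membrane gel without LIF leave the naive state, polarise and open a central lumen, much as the epiblast does at implantation. During this exit the genes of naive pluripotency are switched off, those of the formative state are switched on, and apical membrane traffic and epithelial junctions are built up. Cells in the pluripotent state are known for a weak interferon response, and genes of antigen presentation are low in them. CIDEA is a protein of lipid droplets, the organelles that store neutral lipids, and promotes their fusion and growth.

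Sequencing depth, as the sum of estimated counts, ran from 28.998 to 38.5 M per library. Cidea had 0 counts in all 6 KO libraries and 20 to 117 counts in the 6 WT libraries. KO spheroid replicate 1 at 24 h stood apart, with 15477 genes detected at equal depth against 17640 to 19669 in the other libraries, so the membership and the genotype results are also given without it. The summed TPM of 7 pluripotency markers was 3183 to 3434 at 0 h, 3295 to 3355 at 24 h and 2627 to 2810 at 48 h. All 7 were at 1 TPM or more in each library. Nanog fell from 278 to 331 TPM at 0 h to 62.0 to 75.2 TPM at 48 h, and Pou5f1, Sox2 and Tdgf1 were also lower. Utf1 was higher, at 241 to 279 TPM at 0 h and 461 to 528 TPM at 48 h. Lin28a was also higher, at 74.5 to 110 TPM and 196 to 218 TPM. Sall4 overlapped between these times. The summed level of 7 mesoderm and streak markers was 6.31 to 10.7 TPM at 0 h and 24 h and 11.7 to 15.8 TPM at 48 h, with Mixl1, Mesp1 and Kdr under 1 TPM in all libraries. Eomes alone made up most of the 48 h sum, at 8.42 to 9.46 TPM. Tbx6 was lower at 48 h, at 0.155 to 0.675 TPM against 0.730 to 1.77 TPM at 0 h. The sum of 6 neural markers was 120 to 156 TPM at 0 h and 24 h and 53.9 to 69.5 TPM at 48 h, and Tubb3 alone made up most of it, at 115 to 148 TPM before and 47.0 to 65.2 TPM at 48 h. The primitive endoderm sum of 8 markers was 8.57 to 16.9 TPM. Of these, Dab2 was at 0.935 to 2.22 TPM at 0 h and 5.55 to 7.54 TPM at 48 h. Gata4 and Sox7 were lower at 48 h than at 0 h without overlap, and the other listed markers overlapped. The sum of 7 trophoblast markers was 2.86 to 10.5 TPM with Tpbpa at 0 throughout. The part of these sums in the values below was not tested. In bulk libraries a change in the share of cells that express a gene and a change in its RNA per cell cannot be told apart.

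The median member was at 2.53 TPM at 0 h, 2.54 TPM at 24 h and 7.04 TPM at 48 h. The median over the 66 genes was 2.85 and 2.78 TPM in WT ESCs, 2.43 and 2.26 in KO ESCs, 3.90 and 3.19 in the WT and 1.97 and 2.58 in the KO spheroids of 24 h. At 48 h it was 7.05 and 7.28 TPM in WT and 6.55 and 6.13 in KO spheroids. These medians of the 4 libraries at 48 h lay above those of all 8 earlier libraries. At 24 h both WT values lay above both of WT ESCs, whereas the KO values lay on either side of those of KO ESCs. The flat first 24 h thus holds for medians pooled over the genotypes. Applied to WT libraries alone the rule selected 29 of the 66 genes, and to KO libraries alone 28. The difference between the 24 h and 48 h medians ran from 0.81 to 3.39 on the log2(TPM + 1) scale with a median of 1.02, and the ratio of the median TPM values ran from 1.76 to 14.7 with a median of 2.44. The ratio was at least 2 in 59 genes and at least 3 in 15.

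**Figure D1:**
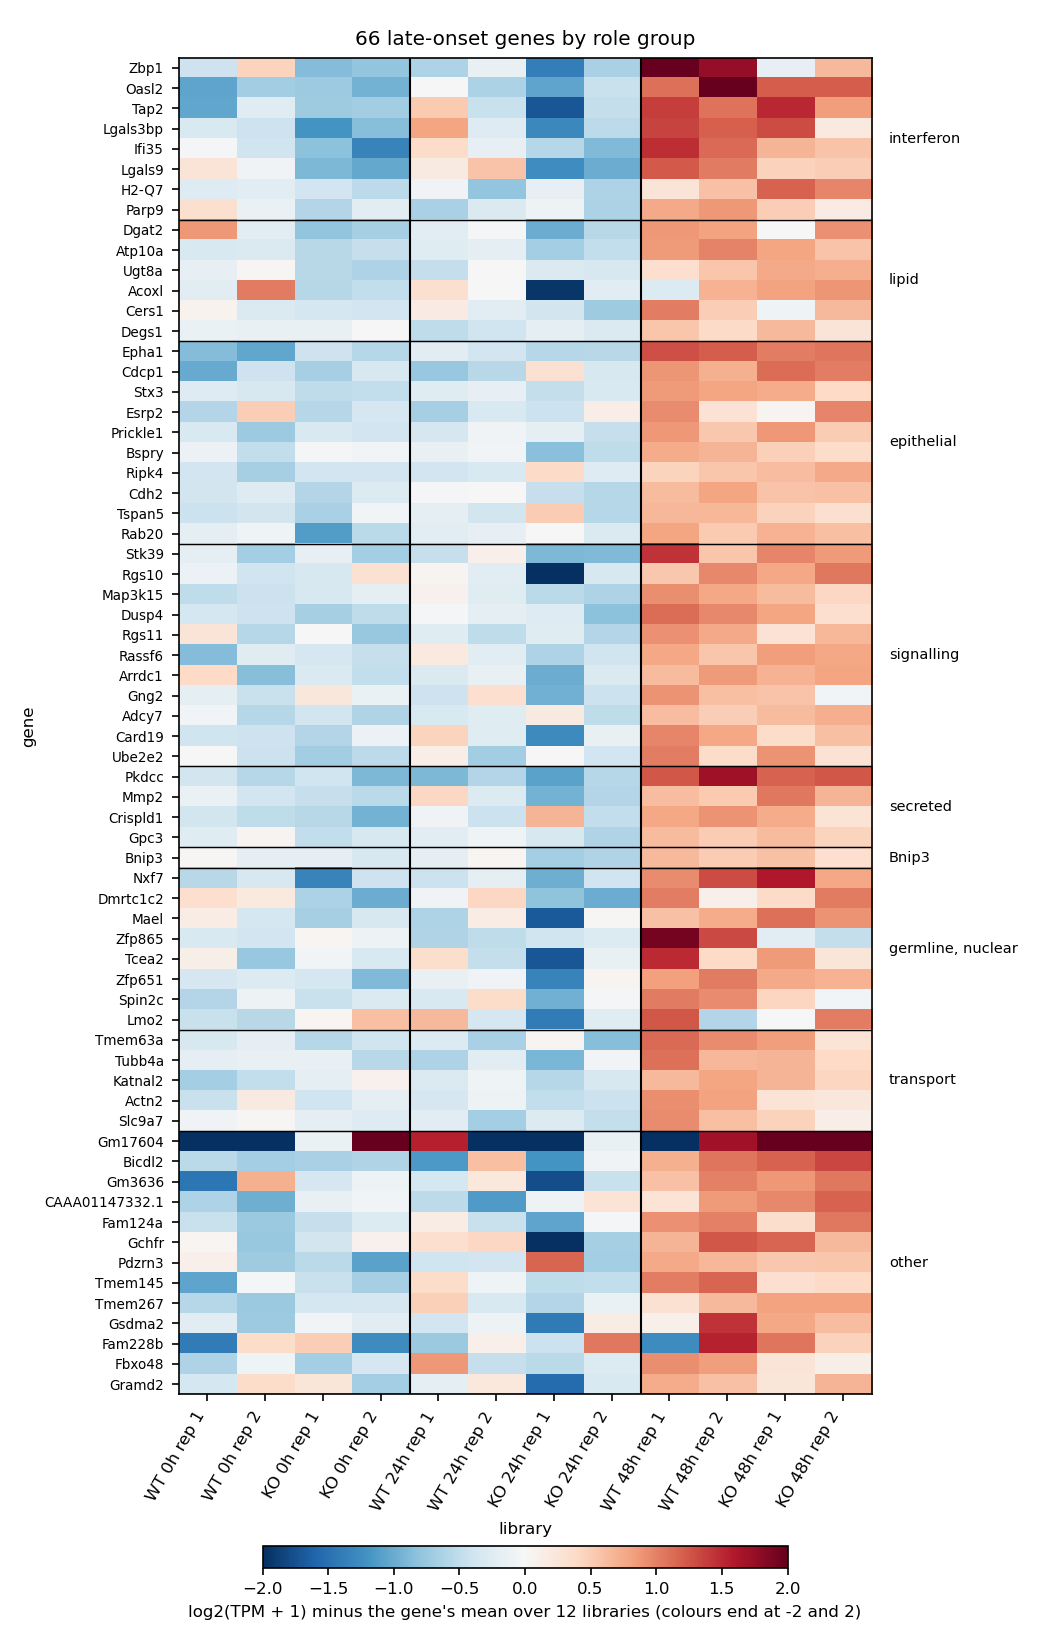
Level of each of the 66 genes (rows, ordered by role) in the 12 libraries (columns, by time and genotype), as log2(TPM + 1) minus the gene's mean over all libraries. The colour is low in the 8 libraries of 0 h and 24 h and high in the 4 libraries of 48 h for most rows, and 38 genes had their lowest 24 h value in KO replicate 1.

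In 43 of the 66 genes all 4 libraries at 48 h lay above all 4 at 24 h, and in 39 they also lay above all 4 at 0 h. The first pattern was found in 6.98% of the protein-coding genes with at least 3 TPM at 48 h, and the members, chosen for a rise in these values, are not set against that share. Of all 17424 genes tested, 8.43% were called higher at 48 h than at 24 h by the quasi-likelihood test of edgeR, and since that contrast chose the members nothing is read from their share. The rise was at least 0.8 in WT libraries alone for 47 genes, in KO libraries alone for 51 and in both for 34. It was above 0 in 66 genes in WT and 65 in KO cells. The median spread between replicates, as the SD of log2(TPM + 1), was 0.28 for the members and 0.14 for all protein-coding genes with at least 3 TPM at 48 h. The set is thus made of low to moderate transcripts, of which 20 were under 5 TPM at 48 h, 35 between 5 and 20 TPM and 11 at 20 TPM or more. Spread differed among the members, from an SD of 0.07 for Epha1 to 1.55 for Gm17604.

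The set is cut from a continuous range of profiles. In all, 250 protein-coding genes had a rise of at least 0.8 and at least 3 TPM at 48 h, of which 108 were already higher by 0.3 or more at 24 h and 76 were lower by 0.3 or more. Just inside the limit on the rise were Degs1 and Lmo2, both at 0.81, and just outside were Fuca1 and Cds1, both at 0.79. Just inside the limit on the early change were Oasl2 at 0.30 and Ube2e2 at 0.29, whereas Pid1 and Marveld3 lay outside with early changes of -0.30 each. Nearest to the limit on the level were Lmo2 at 3.04 TPM and Fam124a at 3.11 TPM inside, and Aadat at 2.97 TPM and Gm20521 at 2.83 TPM outside. Leaving out each library in turn kept 24 of the 66 genes in the set every time, and 3 genes, Lgals9, Fam228b and Gm17604, were kept in fewer than 6 of the 12 cases. Without KO replicate 1 at 24 h the rule selected 65 genes, of which 39 were among the 66 (59.1% of the members). All 11 signalling members were among the 39, and so were 7 of the 10 epithelial, 4 of the 6 lipid and 3 of the 8 interferon members, while the interferon members Lgals9, Ifi35, Parp9, Oasl2 and Lgals3bp were lost.

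The members were sorted by role after their values had been seen, and 8 of them belong to the interferon and antigen presentation genes. Their rise ran from 1.08 to 1.83 with a median of 1.46, the highest median among the role groups with more than 1 gene, and their 48 h medians lay between 3.82 and 15.7 TPM. Interferon-stimulated genes encode sensors of foreign nucleic acid, enzymes that block viral replication and the machinery that loads peptides on MHC class I.

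Zbp1, a sensor of Z-form nucleic acid that can trigger cell death, was at 0.974 and 2.55 TPM in WT ESCs, 0.434 and 0.509 in KO ESCs, 0.706 and 1.37 in WT and 0 and 0.670 in KO spheroids at 24 h. At 48 h it was at 10.9 and 7.85 TPM in WT and 1.34 and 3.09 in KO spheroids. The WT libraries of 48 h lay far above all others, whereas 1 KO library of 48 h lay among the earlier WT values and the other lay above all 8 earlier libraries. The ratio of the 48 h to the 24 h median was 7.96.

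Oasl2, a member of the oligoadenylate synthetase family, was at 0 and 0.284 TPM in WT ESCs, 0.263 and 0.0783 in KO ESCs, 1.09 and 0.350 in WT and 0 and 0.525 in KO spheroids at 24 h. It reached 3.46 and 7.75 TPM in WT and 3.82 and 3.83 in KO spheroids at 48 h, and all 4 of these libraries lay above the other 8, with a ratio of 8.75.

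Tap2, a subunit of the transporter that carries peptides to MHC class I, was at 0.702 and 1.96 TPM in WT ESCs, 1.13 and 1.15 in KO ESCs, 4.004 and 1.57 in WT and 0.0638 and 1.501 in KO spheroids at 24 h. It was at 8.11 and 6.40 TPM in WT and 8.92 and 5.21 in KO spheroids at 48 h, above all earlier libraries in both genotypes. H2-Q7, a nonclassical MHC class I gene, was at 4.56 to 5.96 TPM in the 4 ESC libraries and at 6.61 and 3.65 in WT and 6.13 and 4.23 TPM in KO spheroids at 24 h. At 48 h H2-Q7 was at 8.56 and 11.1 TPM in WT and 17.1 and 14.7 TPM in KO spheroids, so it was the member of this group with both KO libraries above both WT libraries at 48 h. Reads of H2-Q7 can be shared with near-identical class I genes, and its level is uncertain for that reason.

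Lgals9, which encodes galectin-9, was at 6.32 and 4.89 TPM in WT ESCs, 2.29 and 2.04 in KO ESCs, 5.98 and 8.17 in WT and 1.59 and 2.08 in KO spheroids at 24 h. It was at 13.4 and 11.7 TPM in WT and 7.47 and 7.70 in KO spheroids at 48 h. WT lay above KO at each time with no overlap, and both genotypes were highest at 48 h. Ifi35, an interferon-induced gene, was at 7.32 and 5.44 TPM in WT ESCs, 3.81 and 2.36 in KO ESCs, 9.97 and 6.59 in WT and 4.70 and 3.63 in KO spheroids at 24 h. It was at 22.8 and 17.6 TPM in WT and 12.6 and 11.6 in KO spheroids at 48 h, again with WT above KO at each time.

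Lgals3bp, a secreted glycoprotein that binds galectins, was at 0.0685 to 0.972 TPM in ESCs, 3.21 and 1.05 in WT and 0 and 0.703 in KO spheroids at 24 h, and 5.22 and 4.59 in WT and 5.04 and 1.80 in KO spheroids at 48 h. Parp9, which acts with the ubiquitin ligase Dtx3l, was at 12.5 and 8.84 TPM in WT ESCs, 6.24 and 8.31 in KO ESCs, 5.94 and 7.84 in WT and 9.06 and 5.98 in KO spheroids at 24 h. At 48 h Parp9 was at 17.2 and 18.7 TPM in WT and 14.2 and 11.2 in KO spheroids. For Parp9, 1 WT library of 0 h lay above 1 KO library of 48 h, and for Lgals3bp 1 KO library of 48 h lay within the 24 h range. Parp9 shares exon sequence with Dtx3l on the opposite strand, and the strand setting of the quantification was not given in the sources used here.

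**Figure D2:**
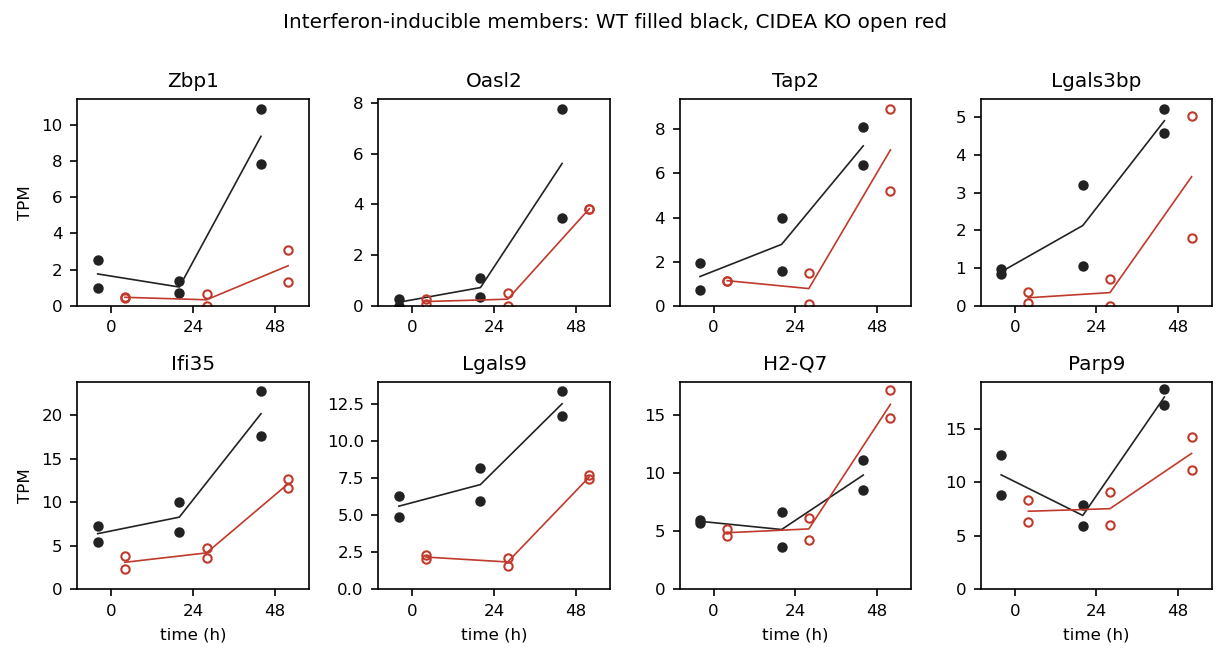
TPM (vertical axis, linear) of the 8 interferon and antigen presentation genes at 0, 24 and 48 h in each library, with WT as filled black and KO as open red points and lines through the means of 2. Lgals9 and Ifi35 show WT above KO at each time, whereas H2-Q7 shows KO above WT at 48 h.

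None of these 8 genes was on a separate list of 28 interferon response genes, of which 26 were tested and were not members. By edgeR with Benjamini-Hochberg adjustment, 8 of the 26 were higher at 48 h than at 24 h and 4 were lower, against 8.43% and 9.69% of all genes, and their median log2 fold change was 0.56 against 0.02 for all genes. Gbp2, a guanylate-binding protein, had a log2 fold change of 4.45 (SE 0.632, adjusted p = 0.00104), and Psmb8, a subunit of the immunoproteasome that cuts peptides for MHC class I, 3.32 (SE 0.764, adjusted p = 0.0162). Gbp3, Igtp, Irgm1 and Bst2 rose as well, by 3.05, 1.88, 0.98 and 0.59. The transcription factor gene Irf1 rose by 1.24 (SE 0.104, adjusted p = 2.5e-07) from a 24 h median of 48.8 TPM to 106 TPM, and H2-K1, a classical MHC class I gene, by 0.52. Of these 8 genes 7 were already higher at 24 h than at 0 h by 0.3 or more on the log2(TPM + 1) scale, and 5 of the 7 met the limit of 0.8 on the rise, whereas Irgm1 and Bst2 did not. The genes that fell were Oas1a by 1.11, Ifitm2 by 0.60, Ifitm3 by 0.56 and Ifitm1 by 0.44.

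The promoter windows of Lgals9 and Ifi35 are shown because these 2 members differed between the genotypes in each of the 18 alternative analyses described below. Both are RefSeq windows on GRCm38.p6, from 250 bases before to 50 bases after the annotated start, in the direction of transcription. In Lgals9 (chr11:78984875-78985174, minus strand) the capitals mark 2 matches to the core of an interferon-stimulated element, GAAANNGAA or its reverse complement TTCNNTTTC, that begin at -54 and 16 with the start site as 0. In Ifi35 (chr11:101448162-101448461, plus strand) the capitals mark 1 match to the palindrome TTCNNNGAA that begins at 7.
Lgals9: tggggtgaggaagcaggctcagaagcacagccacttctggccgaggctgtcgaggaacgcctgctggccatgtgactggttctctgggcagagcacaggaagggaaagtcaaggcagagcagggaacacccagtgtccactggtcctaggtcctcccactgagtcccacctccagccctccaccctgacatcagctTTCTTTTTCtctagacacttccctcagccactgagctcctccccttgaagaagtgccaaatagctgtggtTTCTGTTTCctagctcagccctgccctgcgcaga
Ifi35: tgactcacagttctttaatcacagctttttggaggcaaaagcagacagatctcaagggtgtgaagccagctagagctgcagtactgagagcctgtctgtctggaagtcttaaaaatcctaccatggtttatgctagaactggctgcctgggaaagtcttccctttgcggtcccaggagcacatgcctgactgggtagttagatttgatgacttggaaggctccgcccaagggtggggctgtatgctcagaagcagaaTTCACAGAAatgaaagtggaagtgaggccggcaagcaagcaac
A RefSeq window was at hand for 46 of the 66 members, 57 windows in all. GAAANNGAA on either strand was found in 3 of the 57 windows (5.26%) and in 8.56% of all 32851 windows of the same length, and TTCNNNGAA in 5.26% and 8.30%. Of the 5 windows of the interferon group, 1 held each of these motifs. The hypoxia-response core ACGTG stood in 21.1% of member windows and 19.6% of all, the TCF core CTTTGA in 8.77% and 16.0%, and the grainyhead core AACCNGTT in 0 of 57 and 2.09%. A match is a description of letters and does not show that a factor bound there. The median GC content was 62.0% in the member windows and 52.7% in all windows, and the median ratio of observed to expected CpG was 0.653 and 0.384. Genes with the level the rule asks for were not separated from silent genes in this background.

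The 6 lipid members had a median rise of 0.90, from 0.81 to 1.22. Degs1, the desaturase that makes ceramide from dihydroceramide, was the member with the highest level. Degs1 was at 97.4 to 108 TPM in the 4 ESC libraries, 75.6 and 82.2 in WT and 94.2 and 87.9 in KO spheroids at 24 h, and 159 and 141 in WT and 170 and 129 TPM in KO spheroids at 48 h. All 4 libraries of 48 h lay above the 8 earlier ones. Cers1, a ceramide synthase, was at 1.79 to 2.83 TPM in ESCs, 3.06 and 2.09 in WT and 1.83 and 1.23 in KO spheroids at 24 h, and 6.39 and 4.12 in WT and 2.44 and 4.66 TPM in KO spheroids at 48 h, so that 1 KO library of 48 h overlapped with earlier WT libraries. Ugt8a, which adds galactose to ceramide, was at 2.10 and 3.35 TPM in WT and 2.55 and 2.47 in KO spheroids at 24 h and at 4.45 and 5.34 in WT and 6.32 and 6.11 TPM in KO spheroids at 48 h, without overlap. These 3 genes act in the same branch of sphingolipid synthesis. Cers1 shares exon sequence with Gdf1 on the same strand and with Upf1 on the opposite strand. Its transcript with 69.2% of the increase was at 0 in WT replicate 2 at 48 h and in KO replicate 2 at 24 h. Without KO replicate 1 at 24 h Cers1 was not in the set.

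Dgat2, which catalyses the last step of triacylglycerol synthesis and so supplies lipid droplets, was at 5.22 and 1.93 TPM in WT ESCs and 0.991 and 1.17 in KO ESCs. It was at 1.96 and 2.36 TPM in WT and 0.720 and 1.32 in KO spheroids at 24 h and at 5.22 and 4.97 in WT and 2.45 and 5.47 in KO spheroids at 48 h. The 48 h libraries lay above those of 24 h, but 1 WT ESC library was as high as the WT spheroids of 48 h. Atp10a, a flippase that moves phospholipids between the leaflets of a membrane, was at 1.47 to 2.45 TPM in the 8 earlier libraries and at 4.92 to 6.93 TPM in the 4 of 48 h. Acoxl, an acyl-CoA oxidase-like gene, overlapped, with 8.78 TPM in 1 WT ESC library and 2.95 to 7.78 TPM at 48 h.

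Dgat2 was the 1 member on a list of 38 genes of lipid droplets, lipolysis and lipophagy. Of the 34 other listed genes tested, 3 were higher and 6 lower at 48 h than at 24 h, and the median log2 fold change was -0.12. Pnpla3, a lipase-like protein of lipid droplets, fell by 1.29 (SE 0.26, adjusted p = 0.00139), and the 3 higher genes are not named. On a list of 32 genes of cholesterol and fatty acid synthesis, which held no member, 18 were higher and 2 lower, with a median of 0.26.

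The 10 members grouped under epithelium, apical traffic, junctions or polarity had a median rise of 0.94. In 8 of them all 48 h libraries lay above all 24 h libraries. Epha1, an ephrin receptor, was at 2.86 and 2.43 TPM in WT ESCs, 4.29 and 3.73 in KO ESCs, 5.05 and 4.36 in WT and 3.74 and 3.76 in KO spheroids at 24 h. It was at 16.1 and 15.3 TPM in WT and 13.3 and 13.7 in KO spheroids at 48 h, 3.57 times the 24 h median and the tightest replicates in the set. In WT both 24 h libraries lay above both ESC libraries, so the small early change of Epha1 holds for the pooled median. Epha1 was kept in 8 of the 12 cases with 1 library left out, and not without KO replicate 1 at 24 h. Epha1 shares exon sequence with Zyx on the opposite strand. It was the 1 member on a list of 50 ephrin, semaphorin, slit and netrin genes, where 8 of the 46 others tested were higher and 8 lower. Stx3, the syntaxin of the apical membrane, was at 31.5 to 37.6 TPM in ESCs, 38.4 and 40.2 in WT and 32.2 and 36.7 in KO spheroids at 24 h, and 82.5 and 79.2 in WT and 76.4 and 60.2 TPM in KO spheroids at 48 h. No library of 48 h overlapped with an earlier one for either gene.

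Cdh2, which encodes N-cadherin, was at 2.58 to 4.33 TPM in the 8 earlier libraries and at 7.38 and 8.25 in WT and 6.98 and 7.04 TPM in KO spheroids at 48 h. Cdcp1, a transmembrane glycoprotein, was at 0.371 to 2.43 TPM in the earlier libraries and at 4.12 and 3.52 in WT and 4.99 and 4.62 TPM in KO spheroids at 48 h, again without overlap. The other members of the group were Esrp2, an epithelial splicing regulator, Ripk4, a kinase of epithelial differentiation, Prickle1 of planar cell polarity, the small GTPase gene Rab20, the tetraspanin gene Tspan5 and Bspry. The 48 h medians of the 10 genes ran from 4.37 to 77.8 TPM.

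Cdh2 was the 1 member on a list of 51 junction and polarity genes, and of the 48 others tested 14 were higher and 9 lower at 48 h than at 24 h. Cdh1, which encodes E-cadherin, rose by 0.50 (SE 0.041, adjusted p = 3.53e-08), Cldn6 by 0.88 and Epcam by 0.44. Podxl, a sialomucin of the apical and luminal surface, rose by 0.60 (SE 0.067, adjusted p = 1.89e-06). The genes named here all rose, and the 9 lower ones are not named. Cdh2 was also on the list of formative genes, where 15 of the 25 other genes tested were higher and 3 lower. On a list of 13 epithelial-mesenchymal transition factors Cdh2 was the 1 member, and of the 11 others tested 0 were higher and 2 lower. On the naive list, which held no member, 12 of 14 genes were lower, with a median log2 fold change of -1.21.

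The 11 signalling members had a median rise of 1.08, and in 9 of them all 48 h libraries lay above all 24 h libraries. Dusp4, a phosphatase that switches off MAP kinases, was at 12.3 to 15.5 TPM in ESCs, 19.7 and 17.6 in WT and 16.6 and 10.9 in KO spheroids at 24 h, and 44.7 and 40.0 in WT and 35.2 and 25.6 TPM in KO spheroids at 48 h. All 48 h libraries lay above the earlier ones, with both WT above both KO libraries. Stk39, a kinase that acts on cation-chloride cotransporters, was at 2.04 to 3.33 TPM in ESCs, 2.52 and 4.19 in WT and 1.59 and 1.64 in KO spheroids at 24 h, and 12.2 and 6.11 in WT and 8.51 and 7.78 TPM in KO spheroids at 48 h. The ratio of 3.92 was the largest of the signalling group. Dusp4 was the 1 member on a list of 50 genes of the FGF and receptor tyrosine kinase pathway, of which 10 of the 49 others were higher and 9 lower at 48 h.

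Gng2, a gamma subunit of heterotrimeric G proteins, was at 17.1 and 14.1 TPM in WT ESCs, 23.2 and 17.9 in KO ESCs, 14.5 and 25.2 in WT and 9.68 and 14.3 in KO spheroids at 24 h, and 37.4 and 30.6 in WT and 29.9 and 18.8 TPM in KO spheroids at 48 h. Of the KO libraries of 48 h, 1 lay within the earlier range. Card19 was at 38.5 and 33.4 TPM in WT and 24.8 and 29.2 in KO spheroids at 48 h, and Arrdc1, an arrestin-like adaptor, at 23.9 and 27.9 in WT and 25.1 and 26.9 TPM in KO spheroids. The group further held Rgs10 and Rgs11, which speed GTP hydrolysis by G protein alpha subunits, the adenylyl cyclase gene Adcy7, the kinase gene Map3k15, Rassf6 and the ubiquitin-conjugating enzyme gene Ube2e2.

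Pkdcc had the largest rise of the 4 secreted or matrix members. Pkdcc, a secreted protein kinase, was at 0.136 to 0.638 TPM in ESCs, 0.131 and 0.411 in WT and 0 and 0.418 in KO spheroids at 24 h, and 3.98 and 5.87 in WT and 3.78 and 3.99 TPM in KO spheroids at 48 h. All 48 h libraries lay far above the others, with a ratio of 14.7. Gpc3, a glypican that carries heparan sulfate at the cell surface, was at 19.96 to 32.02 TPM in the 8 earlier libraries and at 48.7 and 44.2 in WT and 48.6 and 42.5 TPM in KO spheroids at 48 h. Mmp2, a protease that degrades collagen IV, was at 12.9 and 7.62 TPM in WT and 4.43 and 5.94 in KO spheroids at 24 h and at 15.0 and 14.02 in WT and 20.7 and 15.7 TPM in KO spheroids at 48 h. Mmp2 and Gpc3 were the members on a list of 79 matrix and basement membrane genes, of which 13 of the 71 others tested were higher and 16 lower at 48 h. Col4a1 and Lama1, which encode chains of collagen IV and laminin, fell by 1.11 and 1.74, and the 13 higher genes are not named.

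Bnip3, a mitochondrial receptor for mitophagy that is known to be induced under low oxygen, was at 79.1 and 68.6 TPM in WT ESCs, 68.0 and 62.2 in KO ESCs, 68.6 and 79.6 in WT and 48.3 and 51.0 in KO spheroids at 24 h. It was at 122 and 110 TPM in WT and 116 and 97.7 in KO spheroids at 48 h, above all earlier libraries. Bnip3 was the 1 member on a list of 45 genes of glycolysis and the hypoxia response. Of its 45 other tested entries, among them 2 for Aldoa, 19 were higher and 5 lower at 48 h, with a median log2 fold change of 0.31. Stc2 rose by 1.65 (SE 0.149, adjusted p = 1.2e-07), and Egln3, a prolyl hydroxylase that marks hypoxia-inducible factors for degradation, rose by 1.502. The 5 lower entries are not named.

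**Figure D3:**
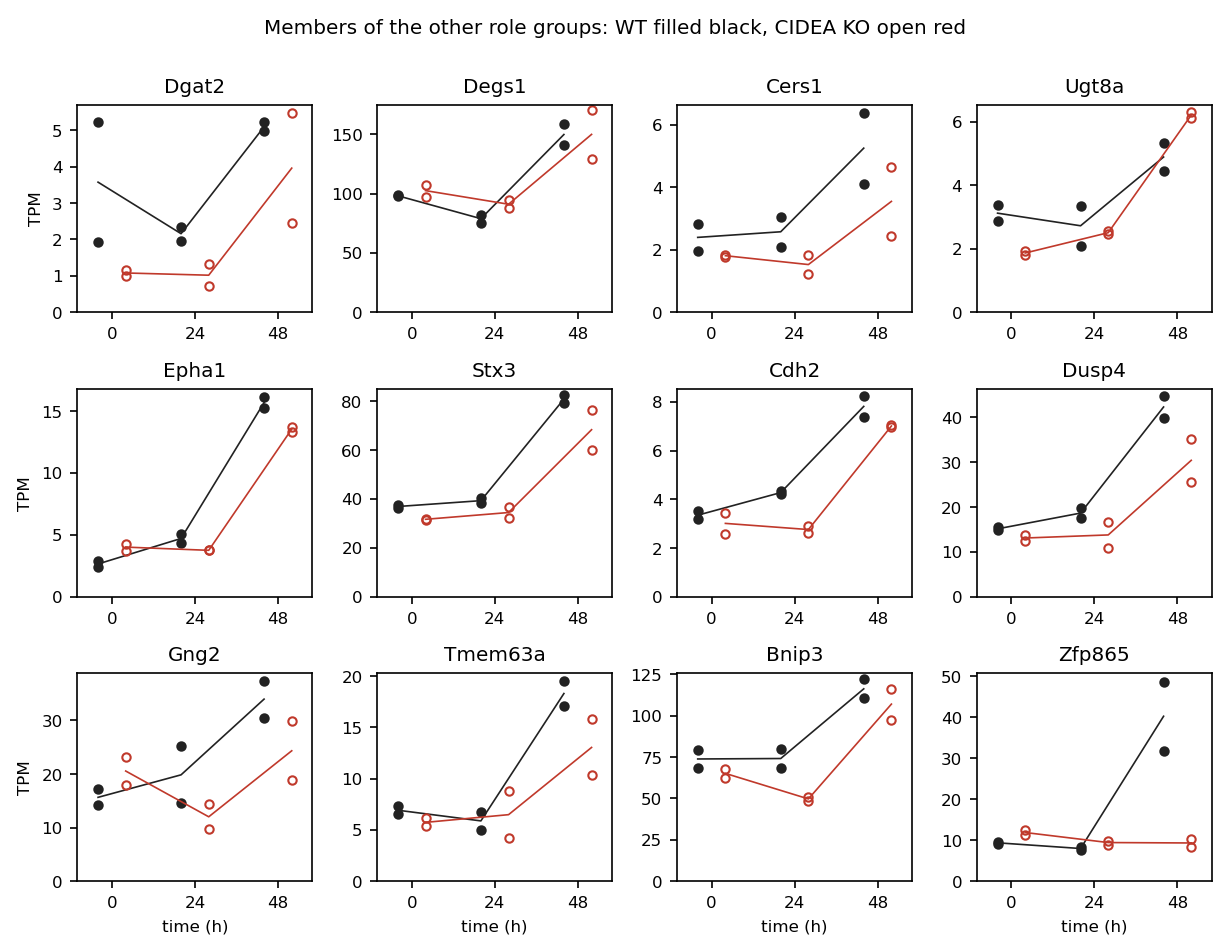
TPM (vertical axis, linear) at 0, 24 and 48 h of 12 members of the other role groups, with WT as filled black and KO as open red points for each library and lines through the means of 2. Degs1, Ugt8a, Epha1, Stx3, Cdh2, Dusp4 and Bnip3 have all 4 libraries of 48 h above all earlier ones, whereas Zfp865 is high at 48 h in the 2 WT libraries, at 48.7 and 31.8 TPM, and not in KO.

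**Figure D4:**
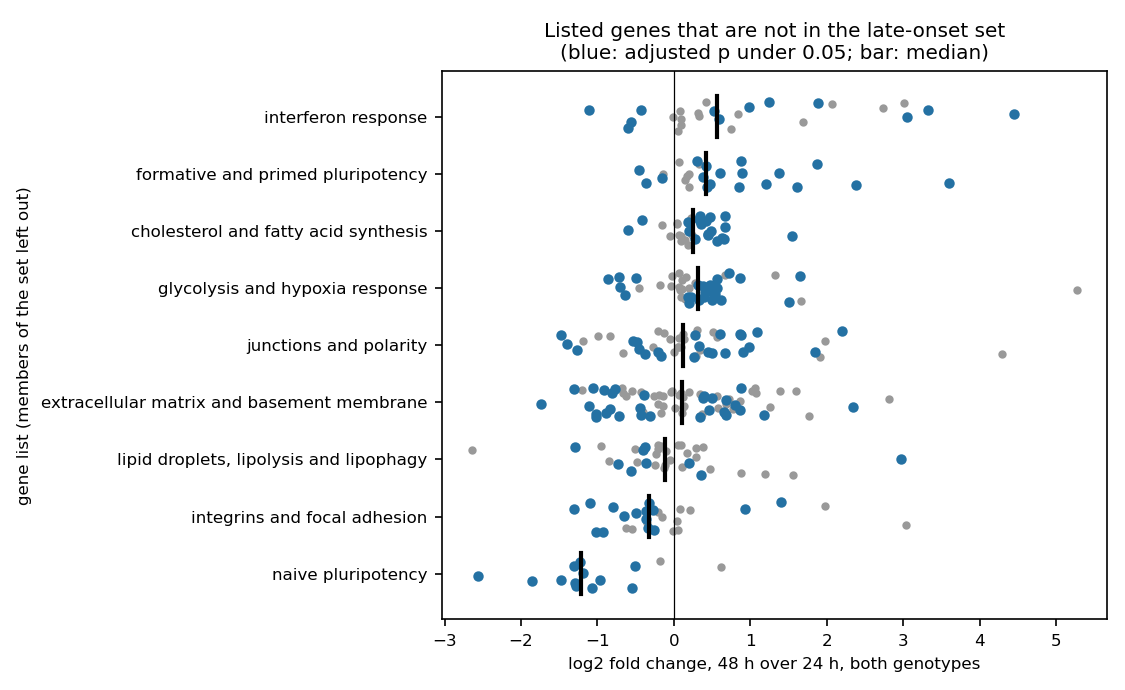
Log2 fold change of 48 h over 24 h (horizontal axis, edgeR, both genotypes) for the genes of 9 lists that were not members, 1 point per gene, with blue for adjusted p under 0.05 and a bar at the median. The naive list has its median at -1.21 and the interferon list at 0.56.

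The 8 members grouped as germline or nuclear factors were less even, and in 3 of them all 48 h libraries lay above all 24 h libraries. Mael, a gene of the piRNA pathway, was at 5.45 and 10.0 TPM in WT and 2.10 and 9.10 in KO spheroids at 24 h and at 13.9 and 15.5 in WT and 20.2 and 17.5 TPM in KO spheroids at 48 h. Nxf7, of the nuclear RNA export factor family, was at 0.291 to 1.88 TPM in the 8 earlier libraries and at 5.28 and 7.07 in WT and 8.88 and 4.55 TPM in KO spheroids at 48 h. Neither gene overlapped between 24 h and 48 h. Mael was the 1 member on a list of 12 germ cell genes, where 2 of the 11 others tested were higher and 3 lower. Lmo2, a transcription cofactor, overlapped widely, with 5.28 and 0.771 TPM in WT and 1.67 and 4.41 in KO spheroids at 48 h and 3.15 TPM in 1 WT library of 24 h.

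Zfp865, a zinc finger gene, was high at 48 h in WT libraries and not in KO libraries. It was at 9.65 and 9.05 TPM in WT ESCs, 12.4 and 11.3 in KO ESCs, 7.64 and 8.27 in WT and 8.92 and 9.90 in KO spheroids at 24 h, and 48.7 and 31.8 in WT and 10.2 and 8.41 TPM in KO spheroids at 48 h. Of its increase, 89.6% lay in 1 transcript that was at 0 in 10 libraries and at 38.4 and 19.3 TPM in the 2 WT libraries of 48 h. The estimated counts of Zfp865 ran from 586 to 909 over the 12 libraries, and its rise was 0.9998 on the log2(TPM + 1) scale and 0.19 on the log2(CPM + 1) scale, where CPM is the count scaled for library size without division by length. Zfp865 shares exon sequence with other genes on both strands.

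The rise thus depended on division by transcript length in some members. On the log2(CPM + 1) scale the rise was also much smaller for Fam228b (0.10 against 0.93), Gm17604 (0.23 against 3.39), Lmo2 (0.26 against 0.81), Spin2c (0.49) and Tmem267 (0.50). Gm17604, which headed the set by its rise, had 0 to 16.4 estimated counts per library and was at 0 TPM in 1 of the 4 libraries of 48 h, so its value is close to the floor of 3 counts. It was the 1 member that did not pass the filter on low counts. At least 2 transcripts were listed for 58 members, of which 46 had more than 50% of their increase in 1 transcript and 41 had the same leading transcript at 24 h and 48 h.

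The 5 members of the transport and cytoskeleton group all had their 48 h libraries above their 24 h libraries. Tmem63a, an ion channel opened by membrane stretch, was at 5.35 to 7.33 TPM in ESCs, 6.74 and 5.02 in WT and 8.78 and 4.19 in KO spheroids at 24 h, and 19.5 and 17.1 in WT and 15.8 and 10.3 TPM in KO spheroids at 48 h. The other 4 were the sodium and proton exchanger gene Slc9a7, Actn2, Tubb4a and Katnal2, a katanin-like gene. Of the 13 members without a shared role, CAAA01147332.1 was high, at 27.3 to 73.5 TPM in the earlier libraries and 73.4 and 110 in WT and 120 and 139 TPM in KO spheroids at 48 h. Bicdl2, an adaptor of dynein transport, was at 0.0237 to 2.54 TPM in the earlier libraries and 2.85 to 4.89 TPM at 48 h. Gm3636, H2-Q7, Dmrtc1c2, Nxf7, Spin2c, Tubb4a and Gsdma2 have close relatives with which reads can be shared, and their values are uncertain.

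The positions below are on GRCm38. In the interferon group they were Lgals9 (chr11:78962974-78984946), Ifi35 (chr11:101448407-101458698), Zbp1 (chr2:173206612-173218923), Oasl2 (chr5:114896936-114912234), Tap2 (chr17:34203527-34216321) and H2-Q7 (chr17:35439155-35443773). Degs1 was at chr1:182275772-182282804, Epha1 at chr6:42358487-42373268, Stx3 at chr19:11775118-11819403, Pkdcc at chr17:83215292-83225070, Gng2 at chr14:19872559-19977627, Tmem63a at chr1:180942344-180975112 and Bnip3 at chr7:138890836-138909519. The X chromosome held 7 members (10.6%), against 3.30% of protein-coding genes with at least 3 TPM at 48 h. They were Gm17604, Nxf7, Dmrtc1c2, Map3k15, Slc9a7, Spin2c and Gpc3, of which 4 were named above among the uncertain copies or the lowest counts. In 12 members an exon overlapped with an exon of another gene on the opposite strand.

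Outside the set, the genes with the profile most like the mean of the standardised members were Wnt8a, with a Pearson correlation of 0.979 over the 12 libraries, Tcf7 (0.970), Gbp2 (0.968), Gbp2b (0.968) and Naa20 (0.967), of 10507 genes compared. The 12 libraries share the same 3 time points, so these correlations describe a time course and carry no test. Wnt8a was at a median of 0.316 TPM at 0 h, 0.682 at 24 h and 6.48 TPM at 48 h, and its early change of 0.35 kept it out of the set.

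The genotypes were then compared by edgeR's quasi-likelihood test on the estimated counts of all 17424 genes, with Benjamini-Hochberg adjustment over all of them. Of the members, 65 were tested. The test called 1 member at 0 h, where 1.26% of all genes were called, 3 at 24 h, where 1.46% were called, and 0 at 48 h, where 0.671% were called. Over all 3 time points 7 members were called against 5.03% of all genes, and all 7 were lower in KO cells, against 2.84% of all genes called lower. At an unadjusted p under 0.05 there were 9, 23, 6 and 24 members at 0 h, 24 h, 48 h and over all times, against 10.0%, 12.5%, 7.74% and 16.8% of all genes. At 48 h DESeq2 called 0 members, and edgeR with average transcript lengths as offsets and limma on log2(TPM + 1) called 1 each, Zfp865, whose WT values of 48 h had also brought it into the set.

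Lgals9 was lower in KO cells with a log2 fold change of -1.48 (SE 0.338, adjusted p = 0.0301) at 0 h, -1.98 (SE 0.34, adjusted p = 0.00363) at 24 h and -1.38 (SE 0.192, adjusted p = 0.000127) over all times in edgeR. At 48 h the log2 fold change was -0.69 (adjusted p = 0.624), which did not pass the test. Of the 18 alternatives 8 called Lgals9 at 0 h, with adjusted p of up to 0.339, and 16 at 24 h, with adjusted p of up to 0.0561. Ifi35 was lower over all times by edgeR with a log2 fold change of -0.96 (SE 0.191, adjusted p = 0.00455), and its values at 0, 24 and 48 h were -1.18, -1.01 and -0.69, none of which passed alone. Zbp1 was lower with a log2 fold change of -2.25 (SE 0.529, adjusted p = 0.0151) over all times. Of the 7 called members, 3 were of the interferon group. That group held 8 of the 66 members and was formed after their values had been seen, and its share of the calls was not tested. Lgals9 and Ifi35 over all times were called in all 18 alternative analyses, with adjusted p of up to 0.0045 and 0.0494, and Zbp1 in 12 of 18, with adjusted p of up to 0.201.

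Gng2 had a log2 fold change of -0.93 (SE 0.192, adjusted p = 0.0151) at 24 h and -0.71 (SE 0.11, adjusted p = 0.000416) over all times, and Tmem63a of -1.05 (SE 0.248, adjusted p = 0.0353) and -0.67 (SE 0.139, adjusted p = 0.00642), in edgeR on counts. The estimated counts of Gng2 were 705 and 686 in WT ESCs and 454 and 372 in KO ESCs, 612 and 677 in WT and 282 and 383 in KO spheroids at 24 h, and 937 and 928 in WT and 821 and 539 in KO spheroids at 48 h. WT lay above KO at each time by counts, whereas the TPM of Gng2 in ESCs was higher in both KO than in both WT libraries. With average transcript lengths as offsets, the log2 fold change over all times was -0.28 for Gng2 (adjusted p = 0.571) and -0.22 for Tmem63a (adjusted p = 0.707), and for Tmem63a at 24 h it was 0.09 (adjusted p = 0.951), the opposite sign. Limma on log2(TPM + 1) did not call either gene, and the other 16 alternatives called both over all times, with adjusted p down to 1.31e-07 for Gng2 and 0.000373 for Tmem63a. At 24 h 13 of the 18 alternatives called Gng2 and 10 called Tmem63a, and neither was called at 24 h without KO replicate 1 of that time. Their lower counts in KO cells are therefore not shown to be lower levels per length.

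Stx3 had a log2 fold change of -0.23 (SE 0.058, adjusted p = 0.0219) and Dmrtc1c2 of -0.86 (SE 0.213, adjusted p = 0.0222) over all times, and they were called in 8 and 9 of the 18 alternatives, with adjusted p of up to 0.219 and 0.17. Neither was called with transcript lengths as offsets.

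Over the 65 members the median log2 fold change of KO over WT was -0.14 at 0 h, -0.62 at 24 h, -0.22 at 48 h and -0.33 over all times, against medians of 0.00, -0.02, 0.00 and -0.00 for all genes. The estimate was below 0 for 41, 53, 42 and 53 members, against 48.8%, 52.7%, 49.9% and 50.5% of all genes. The values at 24 h helped to choose the members, since a low 24 h value favours a rise. In the fit without KO replicate 1 at 24 h, which tested 66 members, the medians were -0.13, -0.43, -0.19 and -0.23, and 4, 2, 0 and 10 members were called, against 2.33%, 1.27%, 1.40% and 5.99% of all genes in that fit. The calls at 0 h were then Lgals9, Ifi35, Lgals3bp and Gng2, and those at 24 h were Lgals9 and Dusp4. The 10 calls over all times were Lgals9, Ifi35, Zbp1, Lgals3bp, Tmem63a, Gng2, Dusp4, Stx3, Gpc3 and Dmrtc1c2, all lower in KO. Without KO replicate 2 at 24 h, so that the library that stood apart was the 1 KO library of that time, 25 members were called at 24 h and 27 over all times, against 12.4% and 13.4% of all genes. In that library 10 members were listed at 0.

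**Figure D5:**
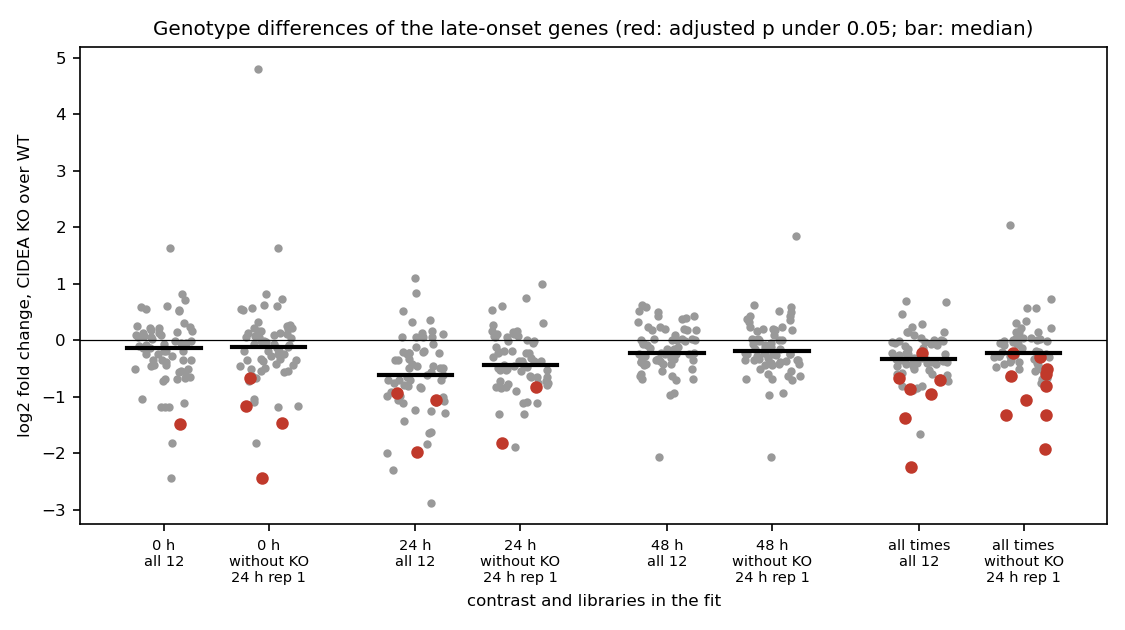
Log2 fold change of KO over WT (vertical axis, edgeR) for each member at 0, 24 and 48 h and over all times, with all 12 libraries and without KO replicate 1 at 24 h. Red points have an adjusted p under 0.05 and bars are medians, which lie at -0.14, -0.62, -0.22 and -0.33 with all libraries.

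The genotype difference in the rise from 24 h to 48 h rests on the values that chose the members and is described on that condition. In edgeR 0 of 65 members were called for it, where 0.023% of all genes were called, and DESeq2 called 0. At an unadjusted p under 0.05 in edgeR there were 4 members, against 5.13% of all genes. The 4 were Lgals9 at 1.29, Mmp2 at 1.30, Bnip3 at 0.52 and Zfp865 at -0.54, as the log2 difference of the rise in KO minus that in WT. Without the filter on low counts edgeR called Mmp2 (1.29, adjusted p = 0.0038), and without KO replicate 2 at 24 h, with the library that stood apart as the 1 KO library of that time, it called 11 members against 4.59% of all genes.

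Several marker sums differed between the genotypes without overlap at 1 time or more. With 2 libraries per genotype, a gap between the ranges is a weak sign, and no test was run. The 6 two-cell-like markers summed to 4.29 to 6.89 TPM in WT and 0.33 to 1.24 TPM in KO spheroids at 24 h and 48 h, and to 0.166 to 1.81 TPM in ESCs, with Usp17la, Zscan4d and Tcstv1 under 1 TPM in all libraries. The 8 fibroblast or feeder markers summed to 14.8 to 24.8 TPM in WT and 6.88 to 13.6 TPM in KO ESCs, to 18.9 to 19.4 and 15.2 to 22.4 TPM at 24 h, with overlap, and to 18.9 to 24.7 and 12.1 to 16.6 TPM at 48 h. Thy1 alone accounted for most of that sum, while Postn was at 0 and Twist2, Col1a2 and Lum were under 1 TPM in all libraries. At 48 h the trophoblast sum was 5.21 to 8.17 TPM in WT and 9.83 to 10.5 in KO, the neural sum 61.8 to 69.5 and 53.9 to 54.7, the primitive endoderm sum 12.95 to 13.6 and 10.8 to 12.4, and the mesoderm sum 15.0 to 15.8 and 11.7 to 14.8 TPM. At 0 h the primitive endoderm sum was 12.5 to 15.0 TPM in WT and 8.57 to 11.03 in KO ESCs, and the mesoderm sum 7.80 to 9.20 and 6.31 to 6.68 TPM. At 24 h the neural sum was 125 to 138 TPM in WT and 120 to 122 in KO, and the pluripotency sum 3295 to 3307 and 3334 to 3355 TPM. Their part in the genotype values was not tested.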

How the data were processed

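mRNA was sequenced from 12 stranded libraries. The authors trimmed reads with Trimmomatic 0.33, used FastQC and quantified transcripts with kallisto 0.43.1, per the submitters' processing notes, which name the builds mm10 and GRCm38. The transcript set was not given in the sources used here. The deposited estimated counts per transcript are not scaled, and in the deposited TPM the authors' quantification divided them by effective length and scaled them to a common total.

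Of 115270 transcripts, 113580 (98.5%) matched GENCODE M21 by identifier. The rest held 0.659% to 0.709% of estimated counts and were left out. Counts and TPM were summed per gene, and count sums were rounded. A floor of 3 counts was 0.0779 to 0.1035 CPM and covers counting error only. Replicates differed by 11.0 to 32.4 chi-square per degree of freedom, so none was a copy.

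Genotypes were compared in edgeR 4.0.16 (R 4.3.3) with TMM, filterByExpr, robust quasi-likelihood and 6 group means. P-values were adjusted by Benjamini-Hochberg over 17424 genes, with 0.05 as the threshold. The fits were tested on simulated data. Alternatives were DESeq2 1.42.0, DESeq2 size factors in edgeR, no filter, average transcript lengths as offsets, limma 3.58.1 on log2(TPM + 1), the replicate block and leaving out each library. Those for the interferon list were added after the data were seen. Scripts also used Python 3.11.15, pandas 2.3.3, numpy 2.4.6 and matplotlib 3.10.9.

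The members and lists were chosen with earlier results of these data known. Named were the 15 members with the largest rise, the 10 with the highest level, members on a list, members called between genotypes, genes next to each limit of the rule, the 5 nearest profiles, Cidea and members at an extreme. Other members were named after their values were seen, to fill the role groups, as were the listed genes given with values.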

Additional observations from a re-analysis of the deposited data

How the results depend on the processing

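The rule selected 106 genes from WT libraries alone, 147 without the limit on the level and 35 with a rise of at least 1, against 66. The 106 held 29 of the 66 members, KO libraries alone selected 86 with 28 members, and log2(CPM + 1) in place of TPM selected 82 with 39. Leaving out 1 library at a time, it selected 56 to 98, with 39 to 62 members among them. Members called at 0 h numbered 2 without a filter, 0 with transcript lengths as offsets and 0 with limma, against 1. At 24 h they numbered 6 with DESeq2, 7 without a filter, 1 with length offsets, 0 with limma and 1 to 25 without 1 library, against 3. At 48 h length offsets and limma called 1 each. Over all times 13 were called with DESeq2, 13 without a filter, 2 with length offsets, 2 with limma and 4 to 27 without 1 library, against 7. Of all genes, these settings called 4.99%, 5.12%, 1.69%, 1.08% and 2.70% to 13.4%, against 5.03%. The genotype difference in the rise had 1 call without a filter and 0 to 11 without 1 library, against 0. The highest counts came without KO replicate 2 at 24 h, and 4 calls over all times were left without KO ESC replicate 2 and without WT replicate 1 at 48 h. Counts called without 1 library are not listed here for single time points. Such a fit leaves 1 library in a group, and the share called among all genes shifted between these fits. The log2 fold change of Tmem63a at 24 h reversed to 0.086 with length offsets and 0.062 with limma. Of all genes, no filter, length offsets and limma called 1.56%, 0.344% and 0.115% at 0 h, against 1.26%. At 24 h DESeq2, no filter, length offsets and limma called 1.90%, 2.48%, 0.367% and 0.115% of all genes, against 1.46%. At 48 h length offsets and limma called 0.109% and 0.132%, against 0.671%. For the rise no filter called 0.392%, against 0.023%. The cause of these shifts was not tested.

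With replicate number as a block (replicate block), 1, 3, 0, 8 and 0 members were called at 0, 24 and 48 h, over all times and for the rise. The shares of all genes in that fit were 1.25%, 1.46%, 0.671%, 4.93% and 0.0287%. Same-numbered WT and KO libraries did not deviate together, with correlations of 0.003, 0.051 and -0.009 at 0, 24 and 48 h. With 2 libraries per group these values do not settle whether the numbers pair the samples. The interferon list had 8 genes called higher at 48 h and 6 to 12 under its alternatives. Each group had 2 libraries, and the median replicate SD of the members was 0.28 on the log2(TPM + 1) scale, which limits the precision of the genotype values.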
